A study of Danio rerio with 18 samples.

Results

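The genes that carry fat and cholesterol into, through and out of cells were followed across adult zebrafish ventricles that were uninjured, sham-operated or cryoinjured, with and without the transcription factor gene tcf21. The 10 genes, of 25107 in the deposited count table, were chosen by name. They are the apolipoprotein E genes apoeb and apoea, lipoprotein lipase (lpl), lysosomal acid lipase (lipa), the lysosomal cholesterol carriers NPC2 and npc1, the exporters abca1a, abca1b and abcg1, and the lipid droplet coat gene plin2. Of these, apoeb and NPC2 had been singled out by their differences between conditions in the same libraries. Their values between conditions are therefore given as a description with no test, while the other 8 genes were tested in every comparison.

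Dying heart muscle leaves membrane and lipid debris, which phagocytes take up and break down in lysosomes. Lysosomal acid lipase frees cholesterol from its esters, NPC2 hands the cholesterol to NPC1 in the lysosomal membrane, and transporters of the ABC family load it onto apolipoproteins outside the cell. Apolipoprotein E is secreted by macrophages among other cells and is a known mark of macrophages that handle lipid. These roles were mostly worked out in human and mouse cells.

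The 18 libraries fell into 6 groups of 3, each library made from poly(A) RNA of 2 to 3 pooled ventricles. All fish carried the same alleles and transgenes, given as tcf21vln18/vln18, Tg(ubbR:CreERT2*)vln2 and TgBAC(tcf21:DsRed2)pd37. The ubb promoter of the transgene is active in most cell types, so the inducible Cre was not limited to the epicardium, the outer layer of the heart where tcf21 marks cells. The knockout fish, named cKO in the labels, had 3 baths of 24 h in 5 µM 4-Hydroxytamoxifen with 24 h of recovery between them. The controls, labelled tcf21-floxed (WT), have no drug under their treatment label, and what they received in its place is not given in the sources used here. Drug exposure and loss of tcf21 therefore cannot be told apart. Uninjured hearts were taken 12 days after the first bath (day 0), and the others 3 days after surgery, which was either a sham procedure that opened the chest to the heart or injury with a cryoprobe cooled in liquid nitrogen.

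Library totals ran from 107256750 to 191085931 estimated counts. The targeted gene matched the labels: tcf21 stood at 6.28 to 18.9 CPM (counts-per-million) in the 9 control libraries and at 0.411 to 0.910 CPM in the 9 cKO libraries. Sarcomere and other cardiomyocyte markers summed to at least 30203 CPM in every library. The sample labels give no sequencing lane. Lane was read from the alignment name in the header of each deposited library, which ends in L2 or L4. By that reading the 3 control uninjured libraries and control sham replicates 1 and 2 came from lane 2, and the other 13 libraries from lane 4. Every comparison among cKO groups, and cKO against control after cryoinjury, thus lay within lane 4, whereas control cryoinjury against control uninjured lay entirely between lanes. Only control sham held libraries from both lanes, so a lane term in the fit rested on its replicate 3 against replicates 1 and 2. Values with lane in the fit for comparisons between lanes thus carry any deviation of that 1 replicate. Within lane 4 a lane term cannot change an estimate, so calls kept or lost there are no check of lane.

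**Figure D1:**
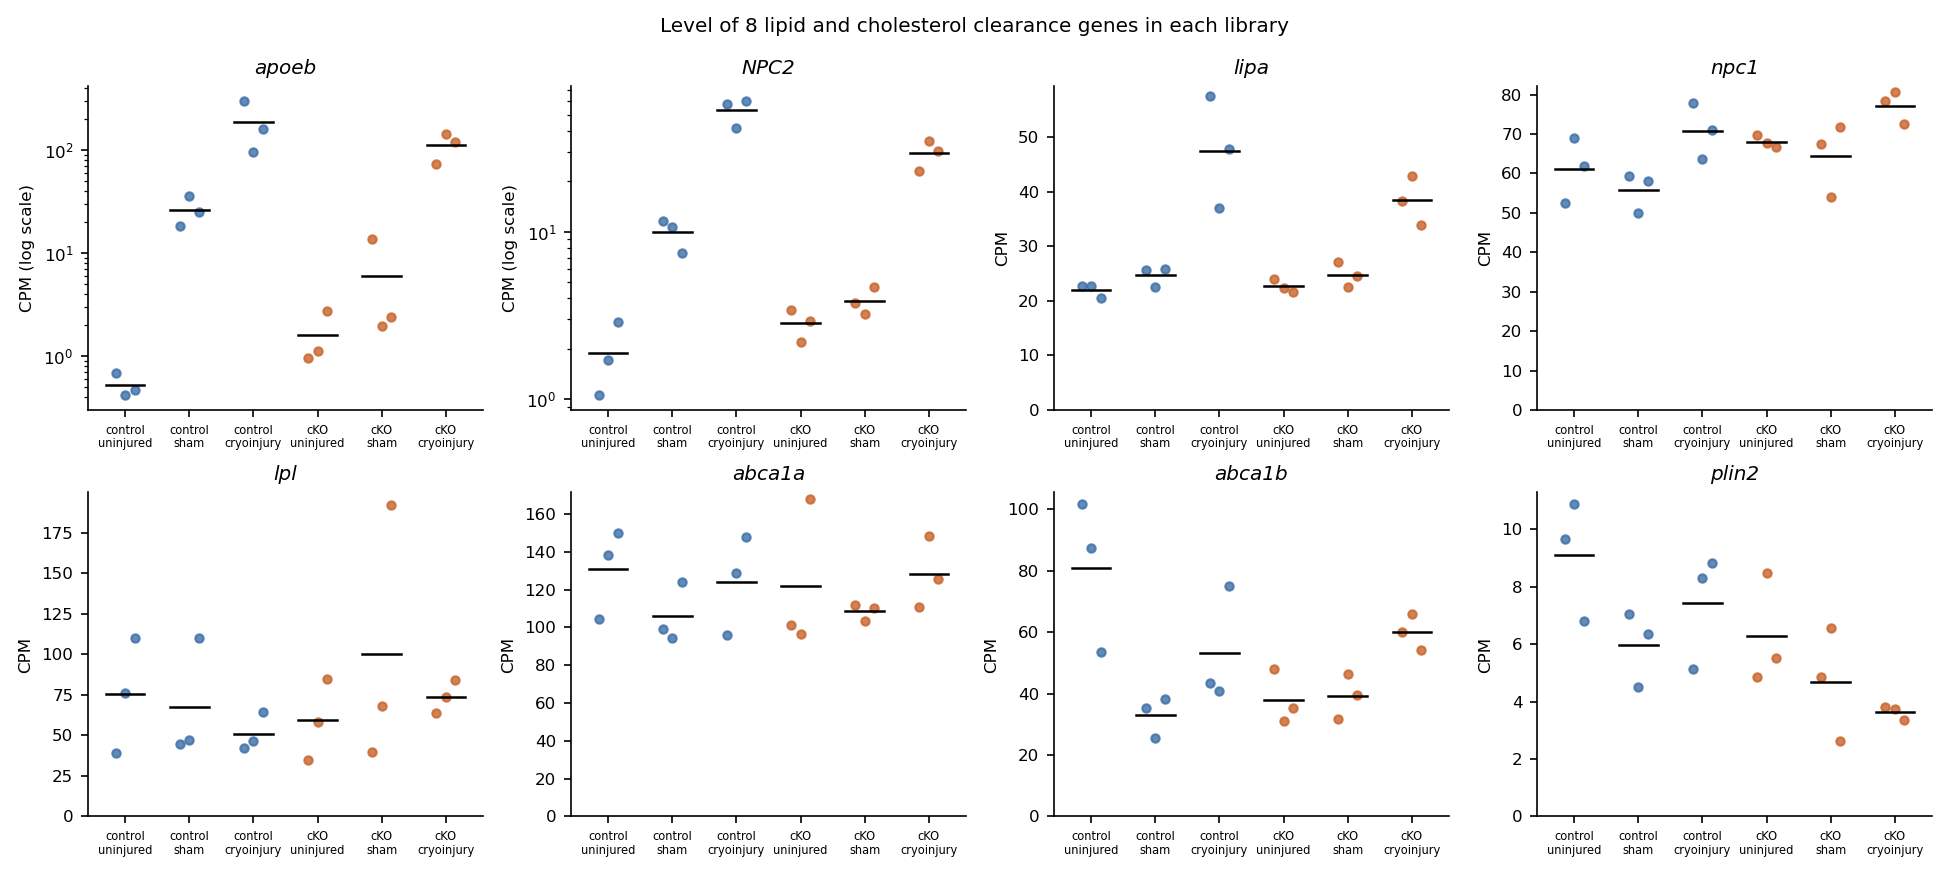
Level of 8 of the genes in counts-per-million units (CPM, vertical axis; log scale for apoeb and NPC2, linear from 0 for the others) in each of the 6 groups (horizontal axis). Points are libraries in the order of their replicate numbers and lines are group means; apoeb ran from 0.419 CPM in a control uninjured library to 303 CPM in a control cryoinjury library, whereas npc1 stayed between 50.0 and 80.6 CPM in all 18.

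The secreted lipid carrier apoeb (ENSDARG00000040295, GRCz11 chromosome 16, 23960744 to 23963461, plus strand) had the widest range of the 10. In control ventricles it stood at 0.695, 0.419 and 0.473 CPM without injury, at 18.5, 35.7 and 25.3 CPM after sham and at 303, 95.2 and 162 CPM after cryoinjury. The 3 control groups did not overlap, and their means of 0.529 ± 0.146, 26.5 ± 8.68 and 187 ± 106 CPM (SD, n = 3 each) stood 50.1-fold apart for sham over uninjured and 7.04-fold apart for cryoinjury over sham. Of all genes 14.4% had every control sham library above every uninjured one, and 14.8% had every cryoinjury library above every sham one. In whole ventricles, more cells that express a gene and more RNA per cell cannot be told apart, here and in every result that follows.

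In cKO ventricles apoeb stood at 0.969, 1.12 and 2.73 CPM without injury, at 13.8, 1.95 and 2.43 CPM after sham and at 73.6, 144 and 119 CPM after cryoinjury. Replicates 2 and 3 of the cKO sham group lay within the range of the cKO uninjured ones, and the cryoinjury libraries lay above all others of the arm. Of all genes 20.0% had every cKO cryoinjury library above every uninjured one, and 16.7% above every sham one. The mean after cryoinjury was 69.9-fold that of uninjured cKO ventricles. Replicate 1 of the cKO sham group decided the sham value: the log2 difference from uninjured was 1.91 with it and 0.44 without it, and that of cryoinjury from sham was 4.21 with it and 5.68 without it.

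Between the arms, apoeb differed in opposite directions in uninjured and sham ventricles without passing the test. All 3 cKO uninjured libraries lay above all 3 control ones, with a log2 fold change of 1.61 ± 0.69 (SE). Leaving out cKO uninjured replicate 3 took it to 0.99. All 3 cKO sham libraries lay below the control ones, at -2.13 ± 0.65, and leaving out 1 library gave -3.60 (without cKO sham replicate 1) to -1.71. After cryoinjury the libraries overlapped, at -0.73 ± 0.63. The uninjured difference lay entirely between lanes 2 and 4. The sham one did so in part, since control sham replicates 1 and 2 came from lane 2, and the cryoinjury one lay within lane 4. None of these differences passed the threshold of 0.05, with adjusted p = 0.32, 0.36 and 0.87 from edgeR's quasi-likelihood test with Benjamini-Hochberg adjustment over 20462 genes. For the background, 5.04% of all genes had every cKO uninjured library above every control one, and 9.63% had every cKO sham library below.

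Coverage along the gene separated the uninjured controls from the rest. The last of the 6 exon blocks of apoeb had a read depth of 4.25 to 5.55 in the 3 control uninjured libraries, while block 3 stood at 0 in replicates 1 and 3 and at 0.00195 in replicate 2. In control sham libraries block 3 had a depth of 41.8 to 95.6, and in control cryoinjury libraries one of 111 to 709. The uninjured control level of apoeb thus rested on reads at the end of the gene. The gene lies inside the span of a longer model on the same strand, nbn, which codes for a DNA repair protein and had group means of 6.02 to 7.95 CPM. Whether reads of that gene add to the lowest apoeb values was not tested.

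The other apolipoprotein E gene, apoea (ENSDARG00000102004, chromosome 19, 10855158 to 10859694, plus strand), was at 0 counts in 13 of the 18 libraries. Its highest value was 0.228 CPM, in 1 cKO uninjured library. No fold change is given for it, since what 1 estimated count stands for in reads is not stated. The apolipoprotein gene next to apoeb on chromosome 16, apoc1, which codes for a small lipoprotein protein, had group means of 0, 4.55 and 7.88 CPM in uninjured, sham and cryoinjured controls and 0.0421, 0.519 and 6.22 CPM in the same cKO groups. The cluster members apoa4b.1, apoa4b.2, apoa4b.3, apoc2, apoc4 and apoa2 each stayed at or under 0.126 CPM in every group mean.

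Lipoprotein lipase, the enzyme that frees fatty acids from circulating lipoproteins at the vessel wall, did not pass the test in any comparison. The gene lpl (ENSDARG00000087697, chromosome 22, 15624371 to 15630421, plus strand) stood at 39.4, 76.1 and 110 CPM in control uninjured libraries and at 42.2, 46.3 and 64.5 CPM after cryoinjury. The widest group was cKO sham, at 39.8, 68.2 and 192 CPM. All 6 groups overlapped with their neighbours. The log2 difference of cryoinjury from uninjured was -0.56 ± 0.52 in controls and 0.31 ± 0.52 in cKO ventricles (adjusted p = 0.49 and 0.77). A second gene with the symbol LPL, ENSDARG00000098720 on chromosome 2, ran from 0 to 1.06 CPM and is not counted among the 10.

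The lysosomal enzyme gene lipa rose after cryoinjury in both arms. The gene (ENSDARG00000018529, chromosome 12, 17158642 to 17201028, minus strand) stood at 22.7, 22.7 and 20.6 CPM in uninjured controls, at 25.6, 22.6 and 25.8 CPM after sham and at 57.6, 37.1 and 47.9 CPM after cryoinjury. In cKO ventricles it stood at 24.1, 22.4 and 21.6 CPM, 27.2, 22.6 and 24.5 CPM, and 38.4, 43.0 and 34.0 CPM in the same order. In each arm every cryoinjury library lay above every uninjured and every sham library, and the uninjured and sham libraries overlapped. For the background, 20.1% of all genes separated in that way from uninjured and 14.8% from sham in controls, and 20.0% and 16.7% in cKO ventricles.

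The rise of lipa over uninjured was 1.11 ± 0.15 on the log2 scale in controls (adjusted p = 8.6e-05) and 0.76 ± 0.15 in cKO ventricles (adjusted p = 0.0042). Over sham it was 0.95 ± 0.15 in controls (adjusted p = 0.013) and 0.64 ± 0.15 in cKO ventricles (adjusted p = 0.045). The rise over uninjured kept its call whichever library was left out. The rise over sham lost it without 4 of the 6 libraries in turn in controls (control cryoinjury replicate 1 and each of the 3 sham libraries) and without any 1 of the 6 in cKO ventricles, with adjusted p up to 0.081 and 0.24. With sequencing lane in the fit the control rises had the same direction, at 1.01 and 0.88, with adjusted p = 0.061 and 0.30. The lane fit left cryoinjury over uninjured in cKO ventricles called, at adjusted p = 0.0061, where all 6 libraries came from lane 4.

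After cryoinjury lipa was lower in cKO than in control ventricles by a log2 difference of -0.31 ± 0.15, with libraries that overlapped and adjusted p = 0.66. The test of whether the rise over uninjured differed between the arms gave -0.35 ± 0.21 and adjusted p = 0.56. Along the gene 8 of the 10 exon blocks had a higher mean depth, scaled to library size, after cryoinjury than in uninjured controls, and 10 of 10 in cKO ventricles. The last block had the highest ratio in both arms, 3.03 in controls and 2.23 in cKO ventricles. The part of coverage along transcripts in the lipa result was not tested.

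NPC2 (ENSDARG00000096979, chromosome 17, 43021662 to 43022468, minus strand), named after the soluble carrier that takes free cholesterol from the lysosome's interior, followed the same order of conditions as apoeb in controls. It stood at 1.05, 1.70 and 2.90 CPM without injury, at 11.5, 10.7 and 7.48 CPM after sham and at 58.1, 41.8 and 60.6 CPM after cryoinjury. The 3 control groups did not overlap, and the means of sham and cryoinjury were 5.26-fold and 28.4-fold that of uninjured. Of all genes 14.4% had every control sham library above every uninjured one, and 14.8% had every cryoinjury library above every sham one. In cKO ventricles the libraries stood at 3.42, 2.19 and 2.91 CPM, at 3.73, 3.21 and 4.66 CPM and at 23.1, 34.9 and 30.3 CPM. Uninjured and sham overlapped there, and the cryoinjury mean was 10.4-fold the uninjured one. Each of the 4 exons of the gene had a higher mean depth after cryoinjury, by 18.7-fold to 36.2-fold in controls and 8.39-fold to 12.5-fold in cKO ventricles.

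Between the arms NPC2 was tested in every condition. All cKO sham libraries lay below all control sham libraries, as for 9.63% of all genes, at a log2 difference of -1.36 ± 0.30 (adjusted p = 0.18). All cKO cryoinjury libraries lay below the control ones, at -0.86 ± 0.29 (adjusted p = 0.48), a comparison within lane 4, where 11.3% of all genes showed the same separation. The uninjured libraries overlapped, at 0.59 ± 0.30 (adjusted p = 0.40), and the average over conditions was -0.54 ± 0.17 (adjusted p = 0.14). The average passed in 1 of the 18 fits that each left out 1 library, with adjusted p from 0.039 to 0.25. DESeq2 called the sham difference, with adjusted p = 0.0056, and called 175 genes there against 3 for edgeR. With lane in the fit the sham difference was -0.95 and the averaged one -0.22, and neither passed.

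A neighbour with the same symbol, ENSDARG00000090912, lies 7848 bases away on the same strand of chromosome 17 (43030317 to 43031828) and behaved differently. It stood at 50.8, 50.0 and 56.9 CPM in uninjured controls, 49.6, 47.1 and 46.2 CPM after sham and 105, 92.6 and 108 CPM after cryoinjury. It rose over uninjured by 0.95 ± 0.13 in controls (adjusted p = 9.6e-05) and by 0.65 ± 0.13 in cKO ventricles (adjusted p = 0.0048). Its sham level did not pass the test against uninjured in either arm, with adjusted p = 0.58 and 0.96. The split of reads between 2 genes of the same symbol depends on counting steps that are not given in the sources used here. Which of the 2 serves as the cholesterol carrier was not tested.

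The membrane partner of NPC2, npc1 (ENSDARG00000017180, chromosome 2, 3823813 to 3866971, plus strand), was among the steadiest of the 10. Its 18 libraries ran from 50.0 to 80.6 CPM. After cryoinjury it stood at 77.8, 63.7 and 70.9 CPM in controls and at 78.3, 80.6 and 72.4 CPM in cKO ventricles, against 52.6, 69.0 and 62.0 CPM and 69.6, 67.8 and 66.8 CPM without injury. The log2 differences were 0.21 ± 0.14 and 0.18 ± 0.14 (adjusted p = 0.30 and 0.45).

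The 3 cholesterol exporters are described in turn. In mammals ABCA1 passes cholesterol to lipid-poor apolipoproteins and ABCG1 to formed particles. The level of abca1a (ENSDARG00000074635, chromosome 1, 52560549 to 52628407, plus strand) ran from 94.5 to 168 CPM in all 18 libraries. It passed no test, with log2 differences of cryoinjury from uninjured of -0.08 ± 0.22 in controls and 0.08 ± 0.22 in cKO ventricles.

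Its paralogue abca1b (ENSDARG00000079009, chromosome 14, 6423973 to 6519076, plus strand) fell after sham in controls. It stood at 102, 87.5 and 53.6 CPM in uninjured controls, at 35.5, 25.6 and 38.2 CPM after sham and at 43.6, 40.9 and 75.0 CPM after cryoinjury. The last of these lay within the uninjured range, and cryoinjury differed from uninjured by -0.61 ± 0.26 (adjusted p = 0.11). That difference passed in 2 of the 6 fits that each left out 1 library, with adjusted p from 0.021 to 0.33. All sham libraries lay below all uninjured ones, as for 9.02% of all genes, and the log2 fold change was -1.29 ± 0.27 (adjusted p = 0.0078). The call held without each library in turn, with adjusted p between 0.0020 and 0.041. Within lane 2, which leaves out control sham replicate 3, it was -1.41 (adjusted p = 0.019). It was lost when only these 6 libraries were fitted (adjusted p = 0.068). Of 47 exon blocks 46 had a lower mean depth after sham and all 47 after cryoinjury, with median ratios to uninjured of 0.41 and 0.43. In the last block the ratio was 0.43 after sham and 0.96 after cryoinjury. The part of coverage along transcripts in these values was not tested.

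In cKO ventricles abca1b was already at 47.9, 31.0 and 35.2 CPM without injury, below every uninjured control library, as for 5.34% of all genes, and at 31.8, 46.2 and 39.5 CPM after sham. The difference between the arms without injury was -1.09 ± 0.27 (adjusted p = 0.11), and it lay entirely between lanes 2 and 4. It passed with DESeq2 (adjusted p = 0.0082) and without control uninjured replicate 3 (adjusted p = 0.017). These settings called 593 and 557 genes over all for uninjured cKO against control, in place of 27 in the main fit. The sham change did not differ between the arms past the threshold, at a log2 difference of 1.33 ± 0.37 and adjusted p = 0.26. After cryoinjury the cKO libraries stood at 60.1, 66.1 and 54.3 CPM, above their own uninjured libraries, as for 20.0% of all genes, at 0.66 ± 0.26 (adjusted p = 0.12).

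The remaining exporter, abcg1 (ENSDARG00000063475, chromosome 15, 5028608 to 5074983, plus strand), was close to the limit of what was counted. It had 0 counts in 9 of 18 libraries, among them all of control uninjured and of cKO cryoinjury, and at most 0.391 CPM, in a control cryoinjury library. Control cryoinjury libraries stood at 0.178, 0.391 and 0.274 CPM, and this difference from uninjured passed the test (adjusted p = 0.031). The call was lost without any 1 of the 6 libraries (adjusted p 0.053 to 0.075) and with lane in the fit (0.31). It passed the filter on low counts through the few libraries that hold counts, so nothing is read from the call.

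The lipid droplet coat gene plin2 (ENSDARG00000042332, chromosome 15, 17030473 to 17048822, plus strand) was the lowest per length of the 8 clearly detected genes when averaged over the libraries. In controls it stood at 9.66, 10.9 and 6.79 CPM without injury, 7.06, 4.50 and 6.36 CPM after sham and 5.15, 8.29 and 8.83 CPM after cryoinjury. In cKO ventricles it stood at 4.84, 8.46 and 5.52 CPM, 4.85, 6.58 and 2.62 CPM and 3.80, 3.73 and 3.37 CPM. All 3 cKO cryoinjury libraries lay below all control cryoinjury libraries, all 6 from lane 4, as for 11.3% of all genes.

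That plin2 difference was -1.03 ± 0.32 on the log2 scale (adjusted p = 0.44), and the average over the 3 conditions was -0.64 ± 0.18 (adjusted p = 0.11). The averaged difference passed with DESeq2 (adjusted p = 0.027) and without control uninjured replicate 3 (adjusted p = 0.049). These settings called 851 and 726 genes over all for the average, in place of 106 in the main fit. The average includes uninjured ventricles, where the arms came from different lanes. With lane in the fit tcf21 was the only gene called on average. Leaving out other libraries gave adjusted p up to 0.21.

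Counted over the list, edgeR called none of the 10 genes between cKO and control in any condition or on average, at a background of 0.132% of tested genes for uninjured, 0.0147% for sham, 0.00489% for cryoinjury and 0.518% for the average. At an unadjusted p under 0.05 the counts were 3, 2, 3 and 2 of 10, where 13.7%, 8.04%, 7.59% and 15.7% of all genes were under that value. DESeq2 called 1, 1, 0 and 1 of the 10 at an adjusted p under 0.05. Of all genes it called 593, 175, 103 and 851 in the same order. Differences in the cKO effect between conditions gave no call among the 8 tested genes, at a background of 0%, 0.0244% and 0.0244% of genes for cryoinjury minus sham, cryoinjury minus uninjured and sham minus uninjured. At an unadjusted p under 0.05 these were 1, 2 and 3 of 8, where 2.30%, 11.2% and 9.20% of all genes were.

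Between conditions, controls gave 2 of 8 calls for cryoinjury against uninjured (lipa and abcg1, both higher). The background there was 23.7% of genes called and 13.1% higher. Nothing is read from the abcg1 call, for the reason given with that gene, which leaves lipa alone in that comparison. Controls gave 1 call for cryoinjury against sham (lipa, 1.37% and 0.753% higher) and 1 for sham against uninjured (abca1b, 7.63% and 2.82% lower). The cKO arm gave 1 call for cryoinjury against uninjured (lipa, 10.6% and 6.92% higher), 1 for cryoinjury against sham (lipa, 1.46% and 1.18% higher) and none for sham against uninjured (1.05%). In that last comparison 0 of 8 had an unadjusted p under 0.05, where 10.7% of all genes had. DESeq2 called none of the 8 there and 611 genes over all. The comparisons within an arm share libraries, so their calls are not independent of each other.

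**Figure D2:**
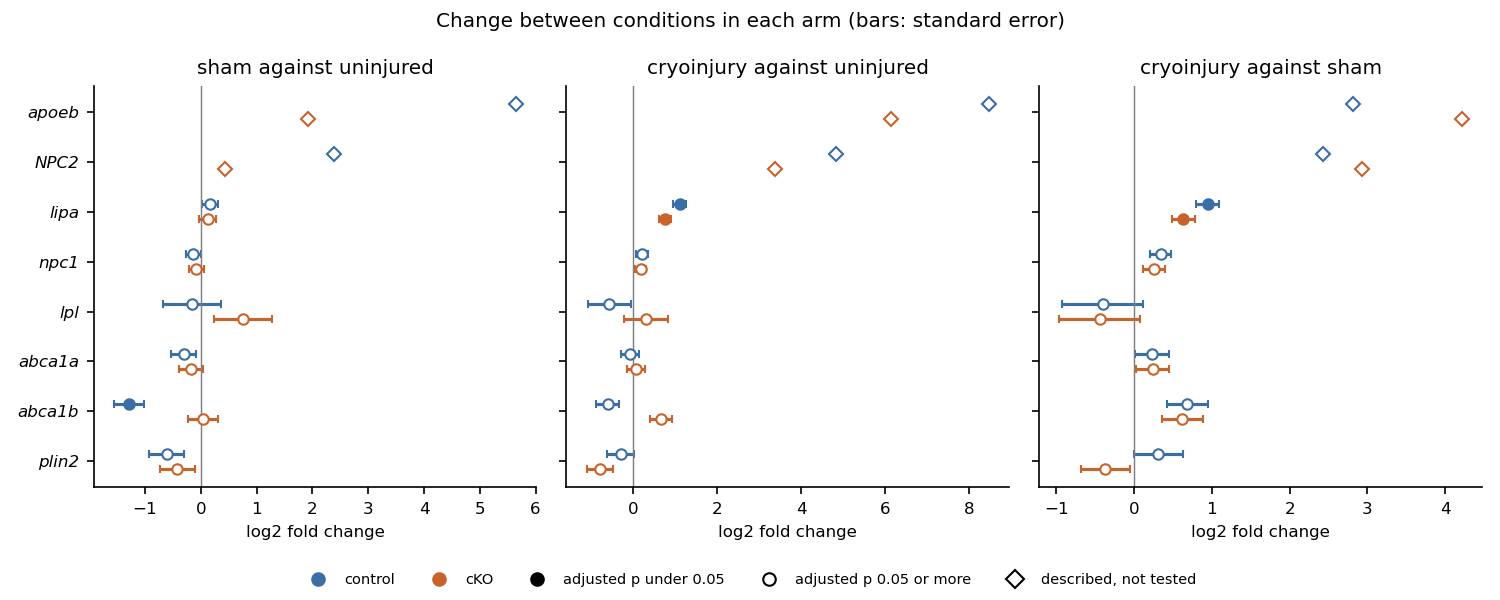
Log2 fold change (horizontal axis) of 8 genes (vertical axis) for sham against uninjured, cryoinjury against uninjured and cryoinjury against sham, in control (blue) and cKO (orange) ventricles. Circles are edgeR estimates with bars of 1 standard error, filled where the adjusted p was under 0.05, and diamonds are apoeb and NPC2, which were described and not tested; lipa is filled in both cryoinjury panels for both arms and abca1b in the sham panel for controls.

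Per length, the order of the genes changed with the condition. On the transcripts-per-million (TPM) scale, taken from the library files, uninjured controls had lpl at 28.9 ± 15.3, abca1a at 17.2 ± 4.89, lipa at 15.4 ± 1.94, npc1 at 15.3 ± 3.86, abca1b at 12.0 ± 3.16, plin2 at 5.54 ± 1.52, NPC2 at 4.65 ± 2.56 and apoeb at 0.421 ± 0.0556 TPM (SD, n = 3). Neighbours from lpl to abca1b, and plin2 and NPC2, lay within each other's spread, and apoeb was below all of these. After cryoinjury the control order began with apoeb at 251 ± 171 and NPC2 at 182 ± 46.1 TPM, followed by lipa at 47.5 ± 15.5 and lpl at 26.5 ± 4.55 TPM. The first 2 were within each other's spread, and NPC2 was above lipa in every library. In cKO cryoinjury ventricles apoeb stood at 124 ± 37.1, NPC2 at 85.7 ± 16.1, lpl at 33.3 ± 2.13 and lipa at 32.9 ± 5.53 TPM.

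The levels of macrophage markers were set beside the 3 genes that were higher after cryoinjury. Of 23 macrophage symbols 15 matched, to 22 genes, of which 13 of the 21 tested rose in control cryoinjury against uninjured and 5 in cKO, none falling, where 13.1% and 6.92% of all genes were called higher. The counts with lane in the fit were 0 in controls and 4 in cKO, whose libraries all came from lane 4. The complement genes c1qb and c1qc, made by tissue macrophages, rose by 2.41 ± 0.45 and 2.24 ± 0.33 in controls (adjusted p = 0.0012 and 1.9e-04; 0.18 and 0.10 with lane). In cKO the leukocyte gene ptprc rose by 1.35 ± 0.26 (adjusted p = 0.0035). The summed level of the list was 332 to 1069 CPM in uninjured, 627 to 1018 CPM in sham and 1100 to 1840 CPM in cryoinjured controls, and 464 to 1260, 585 to 1266 and 1174 to 1257 CPM in the cKO groups. At most 2 of the 22 genes were at 0 in a group.

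The sum and apoeb did not keep a fixed ratio. Control uninjured replicate 3 had a sum of 1069 CPM and apoeb at 0.473 CPM, and control cryoinjury replicate 1 had a sum of 1100 CPM and apoeb at 303 CPM. Uninjured and sham cKO libraries numbered 3 reached 1260 and 1266 CPM with apoeb at 2.73 and 2.43 CPM. Control sham replicate 3 had a sum of 1018 CPM and apoeb at 25.3 CPM. The antigen presentation genes cd74a and cd74b, which other immune cells also express, made up much of the sum, with cd74a alone at group means of 259 to 392 CPM. The part of macrophage number in the levels of apoeb, NPC2 and lipa was not tested.

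**Figure D3:**
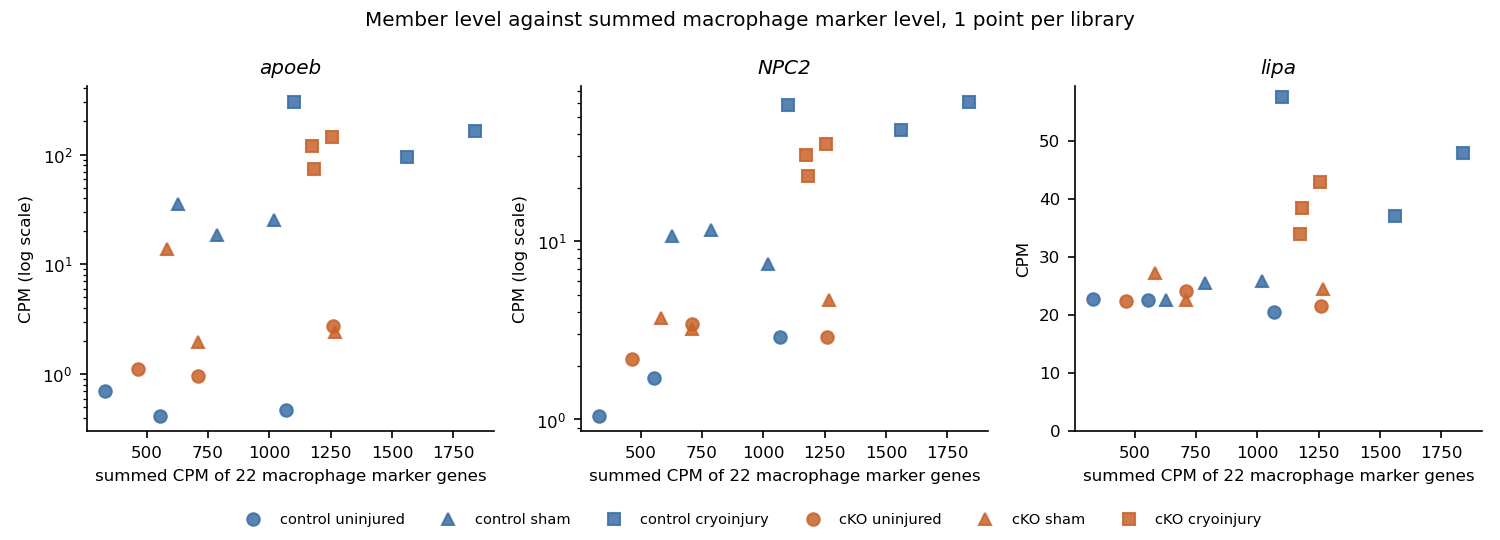
Level of apoeb, NPC2 (log scale) and lipa (linear scale) in counts-per-million units (CPM, vertical axes) against the summed CPM of 22 macrophage marker genes (horizontal axes), 1 point per library, with colour for the arm and shape for the condition. Control uninjured replicate 3 and replicate 3 of the cKO uninjured and cKO sham groups, with sums of 1069 to 1266 CPM, hold 0.473 to 2.73 CPM of apoeb. Control sham replicate 3, with a sum of 1018 CPM, holds 25.3 CPM. Cryoinjury libraries, with sums from 1100 CPM, hold 73.6 to 303 CPM.

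Markers of the other cells a ventricle sample could hold were followed for cryoinjury against uninjured, where 13.1% of all genes rose and 10.6% fell in controls and 6.92% and 3.69% in cKO. Neutrophil markers (9 genes) summed to 5.65 to 26.1 CPM in uninjured and 27.5 to 47.6 CPM in cryoinjured controls, with 3 of 9 tested genes called higher in controls and 1 in cKO. Of 12 liver genes, 1, the iron carrier gene tfa, had 58.2 and 307 CPM in uninjured and cryoinjured controls, while the liver fatty acid binding gene fabp10a stayed at or under 0.0213 CPM and serpina1 at 0 in every group mean. In all, 1 of 6 tested liver genes was higher and 1 lower in controls, and 1 higher in cKO. Of 6 adipocyte genes the droplet gene plin1 stayed at or under 0.0431 CPM and fabp4a at group means of 310 to 368 CPM, with 1 of 5 tested genes higher in each arm. Epicardium and fibroblast markers rose in 12 of 14 genes tested in both arms, and cardiomyocyte markers fell in 5 of 11 in controls, with 1 higher and 1 lower of 11 in cKO. Endothelium markers had 1 higher and 1 lower of 12 in controls and none of 12 in cKO, and red blood cell markers none of 6 in either arm. The control counts with lane in the fit were 8 higher of 14 for epicardium and fibroblast, 1 lower of 6 for liver and 0 for the other marker lists of this paragraph. The part of these cell types in the lipid genes was not tested.

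Other genes of the same pathway were followed in 6 lists that leave the 10 genes out. Of 14 tested genes of lysosomal lipid handling, 7 rose and 2 fell in control cryoinjury against uninjured, with a median log2 change of 0.84 against 0.02 for all genes. Of all genes 13.1% rose and 10.6% fell in that contrast, and 6.92% rose and 3.69% fell in the same contrast in cKO, which is the background for each of the 6 lists. Fitting lane left 2 of these lysosomal genes called higher in controls, ctsd (adjusted p = 0.041) and the NPC2 neighbour (adjusted p = 0.036), and 5 in cKO, within lane 4. The protease gene ctsd rose by 1.69 ± 0.23 (adjusted p = 8.8e-05) from 116 ± 11.5 to 373 ± 117 CPM (SD, n = 3). The ganglioside enzyme gene hexa rose by 0.97 ± 0.21, and tfeb, which codes for a regulator of lysosomal genes, fell by 1.02 ± 0.26 (adjusted p = 0.0081). In the cKO arm 5 rose and none fell, led by scarb2a, a lysosomal membrane receptor, at 1.17 ± 0.30 (adjusted p = 0.019) and by ctsd at 1.00 ± 0.23 (adjusted p = 0.0094). The median there was 0.21 against 0.03 for all genes. For cryoinjury against sham 2 genes rose in each arm, ctsd and the NPC2 neighbour, where 0.753% and 1.18% of all genes were called higher. Fitting lane left no gene at all called in controls, and the neighbour alone of the list in cKO.

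Of 18 scavenger receptor and lipid-laden macrophage genes, 6 rose in control cryoinjury against uninjured and 4 in cKO, none falling, with medians of 1.12 and 0.90 against 0.02 and 0.03 for all genes. When lane was fitted, 0 were called in controls and 4 in cKO, whose libraries all came from lane 4. The cysteine protease gene lgmn rose by 1.69 ± 0.29 in controls and 0.96 ± 0.28 in cKO (adjusted p = 5.6e-04 and 0.041). The gene of the uptake receptor axl rose by 1.48 ± 0.26 and 0.92 ± 0.26 (adjusted p = 6.6e-04 and 0.029), and that of the macrophage membrane protein cd68 by 1.39 ± 0.26 in controls (adjusted p = 9.5e-04). In cKO the hyaluronan scavenger receptor gene stab2 rose from 2.38 ± 0.818 to 10.2 ± 4.86 CPM (SD, n = 3; adjusted p = 0.016). The receptor gene marco is also in the macrophage marker list.

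Among 21 genes of lipid droplets and fatty acid uptake, 1 rose and 5 fell in control cryoinjury against uninjured. Over both directions this is a share near the 23.7% of all genes called, while 13.1% of all genes rose and 10.6% fell. When lane was fitted, none of the 21 was called in controls, fabp3 having adjusted p = 0.056. Within lane 4, the cKO estimate of fabp3 was the same and its call stayed. The heart fatty acid carrier gene fabp3 fell by 1.02 ± 0.17 in controls and by 1.03 ± 0.17 in cKO (adjusted p = 5.3e-04 and 0.0012), from 616 to 304 CPM and from 740 to 361 CPM. The droplet coat gene plin3 fell by 1.16 ± 0.23 (adjusted p = 0.0015), the droplet formation gene fitm2 by 1.03 ± 0.30 (adjusted p = 0.019) and acsl1b, which codes for an enzyme that activates long fatty acids, by 1.18 ± 0.38 (adjusted p = 0.033) in controls. In cKO, fabp3 was the 1 call of the list, where 10.6% of all genes were called. Medians were -0.23 and -0.24 against 0.02 and 0.03 for all genes.

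Of 23 tested genes of lipoproteins and their receptors, 3 rose and 2 fell in controls and 4 rose and 1 fell in cKO. The control share is near the 23.7% of all genes called. When lane was fitted, 2 were called higher in controls, and 3 higher and 1 lower in cKO, within lane 4. The secreted chaperone gene clu rose by 2.08 ± 0.16 in controls and 2.28 ± 0.16 in cKO (adjusted p = 1.0e-06 and 1.1e-06), and in controls it kept its call with lane in the fit (adjusted p = 0.0064). It is also one of the epicardium and fibroblast markers. The sorting receptor gene sorl1 rose by 1.18 ± 0.24 and 1.22 ± 0.24, and the receptor gene vldlr fell by 0.79 ± 0.17 and 0.75 ± 0.17. The lipoprotein lipase inhibitor gene angptl4 fell by 1.82 ± 0.59 in controls (adjusted p = 0.036), where uninjured libraries varied widely, at 105 ± 70.8 CPM (SD, n = 3). Averaged over conditions, clu was higher in cKO by 0.48 ± 0.09 (adjusted p = 0.030), 1 of 2 calls that the 6 lists gave between cKO and control. The other was 1 gene of sterol synthesis that was lower on average. With lane in the fit neither list had a call in the averaged contrast, and clu stood at 0.38 with adjusted p = 0.74.

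Of 26 genes of sterol synthesis, 6 rose and 2 fell in controls and 1 rose and 2 fell in cKO, with medians of 0.40 and 0.19 against 0.02 and 0.03 for all genes. Over both directions these counts are near the 23.7% and 10.6% of all genes called. Of all genes 13.1% in controls and 6.92% in cKO were called higher. The gene hmgcs1, which codes for an early enzyme of cholesterol synthesis, fell by 0.94 ± 0.22 and 0.79 ± 0.22 (adjusted p = 0.0047 and 0.028). In controls idi1, of the same list, rose by 0.59 ± 0.17 (adjusted p = 0.019), and acaca fell by 0.64 ± 0.19 (adjusted p = 0.024). Of the 6 that rose in controls, only idi1 averaged at least 5 CPM over all libraries. The fatty acid synthase gene fasn fell by 0.97 ± 0.19 in cKO (adjusted p = 0.0041). The 10 tested genes of cholesterol efflux and its nuclear receptors gave 1 call in controls, higher, and none in cKO, where 2 of 10 had an unadjusted p under 0.05, as had 25.5% of all genes. With lane in the fit controls kept 1 higher of the 26 sterol genes, which was not idi1 (adjusted p = 0.23), and none of the 10 efflux genes. The sterol counts in cKO, whose libraries all came from lane 4, were the same as without it.

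**Figure D4:**
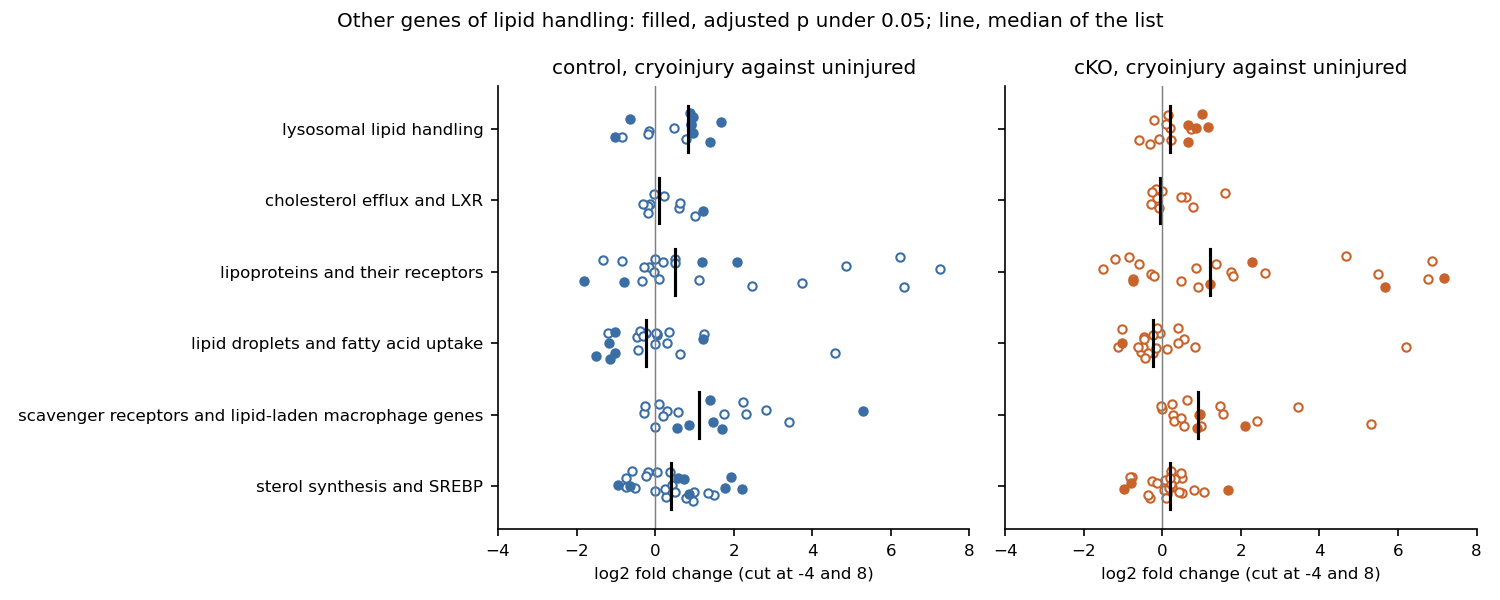
Log2 fold change of cryoinjury against uninjured (horizontal axis) for the genes of 6 lists (vertical axis), in control and cKO ventricles. Each point is a gene, filled where the adjusted p was under 0.05, and the line is the list's median; apoc1, which has 0 counts in control uninjured libraries, lies off the scale in controls.

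The genes whose levels were most like those of apoeb and NPC2 over the 18 libraries were found by Pearson's r of log2 CPM among 9867 genes that have a symbol and average 5 CPM or more. For apoeb these were FHL3 (r = 0.97), RAB34, EVL, slc25a24 and SLC39A7 (r = 0.96 each). FHL3, which codes for a LIM domain protein, had group means of 10.5, 29.9 and 52.9 CPM in controls and 10.4, 18.9 and 44.2 CPM in cKO ventricles. For NPC2 they were slc22a21 (r = 0.99), CTSZ (0.97), ARPC1B (0.97), ABRACL (0.97) and CTSK (0.97). CTSZ and CTSK code for lysosomal cathepsins and ARPC1B for a subunit of an actin nucleating complex. CTSZ had group means of 10.8, 24.3 and 78.9 CPM in controls and 13.7, 17.7 and 48.6 CPM in cKO ventricles. The points share 6 groups, and the r of the deviations from group means was lower, at 0.56 to 0.63 for the 5 genes most like apoeb and at 0.36 (ABRACL) to 0.84 (slc22a21) for those most like NPC2.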

How the data were processed

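Poly(A) RNA sequencing of 18 zebrafish ventricle samples was analysed from deposited estimated counts for 25107 Ensembl genes. Per the submitters' processing notes the tools were FastQC 0.11.9, Trim Galore 0.6.10, HISAT2 2.1.0 and StringTie 2.1.1 on GRCz11, and how gene counts were made is not given in the sources used here. Each count equalled gene coverage times length over 75 bases, within 1 count, in the deposited library files, which gave exon coverage and TPM. Such counts are therefore not whole reads, and counting error was not computed from them.

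Counts were tested as deposited with edgeR 4.0.16 in R 4.3.3: filterByExpr (20462 genes kept), TMM, a robust two-sided quasi-likelihood test on all 18 libraries with 12 residual degrees of freedom, and Benjamini-Hochberg adjustment at 0.05. Errors on log2 fold changes are SE. The fit was tested on simulated data. CPM was taken on effective library sizes, with a prior of 2 counts before log2. DESeq2 1.42.0, other scaling, no filter, lane, a replicate block, fits of the compared libraries alone and leaving out each library were alternatives.

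The 10 genes and the pathway and marker lists (macrophage, neutrophil, cardiomyocyte, epicardium and fibroblast, endothelium, liver, adipocyte, red blood cell) were chosen with earlier results of these data known. From each list at most 4 called genes with the largest log2 change and a mean of at least 5 CPM could be named, besides markers where a list is described. Labels do not say that replicates were separate cohorts, so p-values measure the spread between these samples. Deviations of same-numbered samples correlated at over 0.1 in all 3 pairs only between control uninjured and control sham (r = 0.103, 0.107 and 0.112), where the replicate block left every call on the 10 genes in place. No sequences were used here.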

Additional observations from a re-analysis of the deposited data

How the results depend on the processing

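No log2 fold change of the 10 genes changed sign past the threshold under any alternative run. DESeq2 called 1 of the genes where edgeR called 0 for cKO against control in uninjured (abca1b), sham (NPC2) and averaged (plin2) ventricles and for the difference of the cKO effect between cryoinjury or sham and uninjured (abcg1 and abca1b, 1 each), and 2 in place of 1 for cryoinjury against uninjured in cKO. Over all genes DESeq2 called 318 and 247 for those differences of the cKO effect, where edgeR called 5 and 5. For cryoinjury against uninjured in cKO it called 3443 in place of 2171. With lane in the fit the counts for control cryoinjury against uninjured, control cryoinjury against sham and cKO cryoinjury against sham were 0, and the last was also 0 without a filter on low counts. Fitting only the libraries compared gave 1 for cKO against control after cryoinjury (abcg1), 0 for control sham against uninjured and 2 for cKO cryoinjury against sham. Over all genes these fits called 253, 291 and 1671, in place of 1, 1562 and 298 in the main fit. Nothing is read from the abcg1 calls of DESeq2 and of these fits, as the gene was close to the limit of what was counted. Leaving out 1 library gave 0 to 1 for cKO against control in uninjured and averaged ventricles, 1 to 2 for control cryoinjury against uninjured, 0 to 1 for control cryoinjury against sham and 0 for cKO cryoinjury against sham. For control cryoinjury against uninjured, abcg1 lost its call in each such fit, and abca1b, lower, was called in 2 of the 6. For the averaged contrast, NPC2 and plin2 were each called in 1 of the 18 fits. For cKO cryoinjury against sham all libraries came from lane 4, so fitting lane changed the test there and not the estimate. The cause of the other differences was not tested.

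Over all genes, DESeq2 called 593, 175, 103 and 851 genes for cKO against control in uninjured, sham, cryoinjured and averaged ventricles, against 27, 3, 1 and 106 by edgeR. With lane in the fit edgeR called 1 in place of 106 for the averaged contrast of cKO with control and 1 in place of 27 for uninjured ventricles, tcf21 in both. It called 662 in place of 4852 for control cryoinjury against uninjured, 901 in place of 1562 for control sham against uninjured and 0 in place of 280 for control cryoinjury against sham. The lane term rested on control sham alone, so these counts depend on its replicate 3, the group's only library from lane 4. The replicate block called 230 in place of 106 for the averaged contrast, 555 in place of 280 for control cryoinjury against sham and 505 in place of 298 for cKO cryoinjury against sham, and it changed no call on the 10 genes. With the block, abca1b in control sham against uninjured stood at -1.30 (adjusted p = 0.011). The SE of about 0.52 for lpl in contrasts of a pair of groups limits what could be detected for that gene.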

Other observations

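The levels of lpl followed the replicate number. Replicate 3 was the highest and replicate 1 the lowest of the 3 libraries in all 6 groups, a pattern shown by 40 of the 20462 tested genes (0.195%) for some choice of numbers. For 434 genes (2.12%) the same number was the highest in all 6 groups. What a replicate number stands for is not given in the sources used here.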
